A study of Tribolium castaneum with 2 samples.

Results

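The X chromosome of the red flour beetle *Tribolium castaneum* was examined in whole genome bisulfite sequencing (WGBS) of pooled eggs. Every listed position on an assembled sequence assigned to linkage group 1, the X, was a member, and no measured value entered this choice. These were 955555 of the 19983652 positions listed in either replicate (4.78%), on 13 sequences that span 7276 kb. Replicate 1 listed 670840 X positions with 1327339 reads, and replicate 2 listed 776213 X positions with 1791905 reads. Both replicates listed 491498 of them. The 163 sequences of linkage groups 2 to 10, the autosomes, held 11864334 positions with 26744035 reads in replicate 1 and 13496041 positions with 35867814 reads in replicate 2.

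All DNA came from 1 group, eggs of the GA-2 beetle line, without treatment, in the second day of development, sequenced as 2 replicates. The eggs were pooled, and their sex is not given in the sources used here. Nothing in the labels says whether the pools came from separate cultures, so an SD over the replicates measures the spread between these 2 samples, which may be technical. Where the value of 1 replicate also uses the positions listed in the other, the SD does not measure this spread. With 1 group and 2 samples there is no test over samples.

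Beetle males carry 1 X and a small Y, and females carry 2 X, while both sexes carry 2 copies of each autosome. In DNA of pooled eggs the X is therefore present at 0.5 of the autosomal copy number if all eggs are male, at 0.75 if the sexes are equally frequent and at 1 if all are female. After bisulfite treatment a methylated cytosine is still read as C, while an unmethylated one has become uracil and appears as T. Non-conversion is the share of reads that still show C at a listed position. A read that crosses more than 1 listed position is counted at each of them, so sums of reads are not numbers of separate reads. The tables give neither strand nor sequence context, so every listed position counts as 1 position whatever its context.

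Listed X positions had on average fewer reads than listed autosomal positions in both replicates. A listed X position had on average 1.98 reads in replicate 1 and 2.31 reads in replicate 2, against 2.25 and 2.66 reads on the autosomes. The X to autosome ratio was 0.878 and 0.869, or 0.873 ± 0.00646 (SD, n = 2). The 9 autosomes lay between 2.21 and 2.32 reads in replicate 1 and between 2.61 and 2.71 reads in replicate 2. X was 10.4% and 11.4% below linkage group 5, the lowest autosome in both replicates. An estimate of depth from only the positions with 1 and 2 reads gave a ratio of 0.955 in replicate 1 and 1.02 in replicate 2, so on this measure X was not lower in replicate 2.

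A position is listed only where a read covers it, so its mean cannot fall under 1 read and understates a difference in depth. Depth was therefore also taken in each replicate at the positions listed in the other one, with 0 reads where a position was not listed. On this measure X had 1.40 reads in replicate 1 and 2.00 reads in replicate 2, against 1.70 and 2.43 reads on the autosomes. The ratio was 0.825 in each replicate (mean 0.825 ± 5.62e-05, SD, n = 2). Both values use the positions listed in both replicates, so they are not independent and this SD does not measure the spread between samples. Single autosomes ranged between 1.64 reads (linkage group 3) and 1.77 reads (linkage group 4) in replicate 1, and between 2.36 reads (linkage group 9) and 2.48 reads (linkage group 4) in replicate 2. X lay below all 9 in both replicates, by 14.4% and 15.4% of the lowest. The SD among the 9 autosomes was 0.0466 reads in both replicates.

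**Figure D1:**
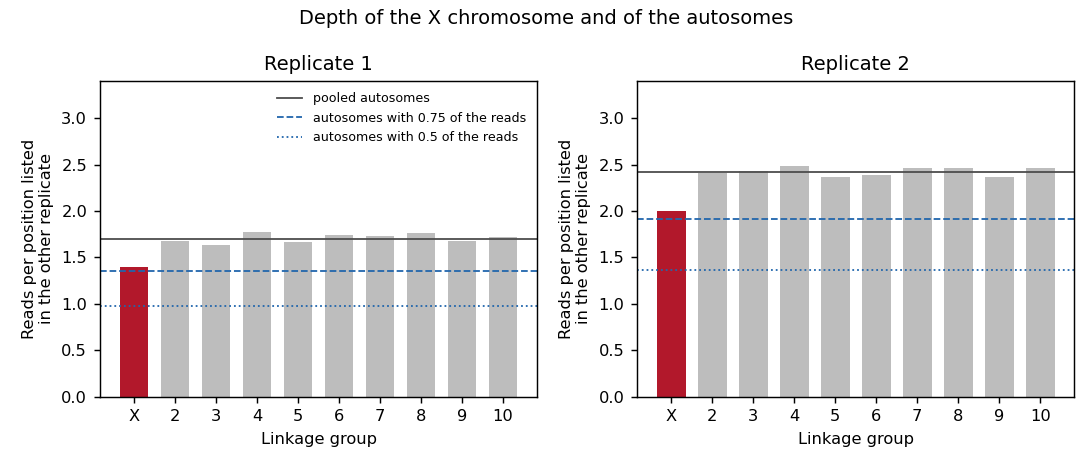
Reads per position listed in the other replicate (y axis) for X and linkage groups 2 to 10 (x axis), with 1 panel per replicate. X reached 1.40 and 2.00 reads and was lower than every autosome. The dashed and dotted lines give the depth of the pooled autosomes with 0.75 and 0.5 of their reads.

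Since listing depends on depth, the raw ratio cannot be set directly beside 0.75. The values that the autosomes would have with part of their reads were therefore calculated exactly from the number of autosomal positions with each pair of read counts. With 0.75 of the reads, the autosomes would have 1.35 and 1.92 reads at positions listed in the other replicate, which is 0.797 and 0.791 of their measured depth. With 0.5 of the reads they would have 0.973 and 1.365 reads, or 0.572 and 0.563 of it. By this measure of depth, X lay slightly above the values for 0.75 and far above those for 0.5. The autosomes would have the depth of X with 0.784 of their reads in replicate 1 and 0.788 in replicate 2, or 0.786 ± 0.00278 (SD, n = 2). These 2 values were solved together from both replicates, so they are not independent either. From the reads per listed position the same calculation gave 0.778 and 0.786. It assumes that reads fall independently and that autosomal and X fragments are recovered and mapped alike. In pooled DNA, the share of female eggs and an unequal recovery of X fragments cannot be told apart.

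The whole distribution of reads was shifted. A single read covered 50.3% of the listed X positions in replicate 1 and 43.4% in replicate 2, against 45.1% and 39.3% on the autosomes. The autosomes with 0.75 of their reads would have 51.8% and 44.9%. At least 5 reads covered 4.85% and 9.49% of the X positions, against 8.45% and 15.1% of the autosomal positions. At least 10 reads covered 0.251% and 0.404% on X, against 0.472% and 0.801% on the autosomes. Of the X positions listed in replicate 1, 73.3% were also listed in replicate 2, and 63.3% of those in replicate 2 were also listed in replicate 1. The autosomal shares were 75.7% and 66.5%, and they would be 71.9% and 62.1% with 0.75 of the reads.

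**Figure D2:**
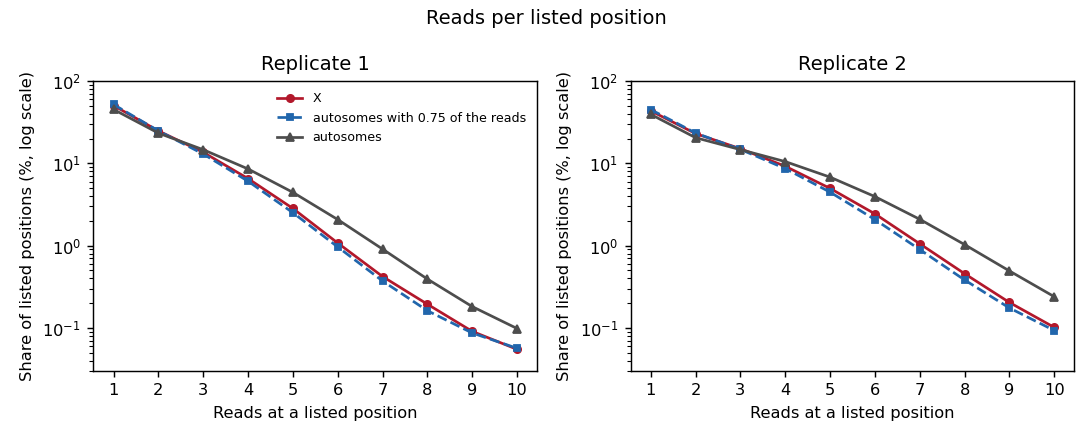
Share of listed positions (y axis, percent, log scale) with 1 to 10 reads (x axis), for X, for the autosomes with 0.75 of their reads (calculated) and for the autosomes as measured, in each replicate. At 6 reads the shares were 1.07% on X, 0.962% calculated and 2.07% on the autosomes in replicate 1, and 2.43%, 2.07% and 3.93% in replicate 2.

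The lower depth did not come with fewer listed positions. In 10 kb windows with a listed position, X had a median of 94.5 listed positions per kb in replicate 1 and 110.1 in replicate 2, against 91.4 and 104.3 on the autosomes. The ratio was 1.03 and 1.06, or 1.04 ± 0.0153 (SD, n = 2). With 0.75 of their reads the autosomes would list 79.5 and 92.4 positions per kb. The single autosomes ranged between 75.9 (linkage group 10) and 104.0 (linkage group 4) in replicate 1, and 4 of the 9 were denser than X in each replicate. X was therefore within the autosomal range of density but outside the autosomal range of depth. The reads per kb combine both measures. Their window median was 181 on X and 199 on the autosomes in replicate 1, and 247 and 271 in replicate 2. The ratio was 0.911 in both (SD 0.000572, n = 2), which is further above 0.75 than the share of reads calculated from depth. Of the 9 autosomes, 6 had more reads per kb than X. How many cytosines X and the autosomes hold per kb, which also enters this ratio, was not analysed here.

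The listed X positions were packed much like autosomal ones. In either replicate, 131 positions per kb of span were listed on X and 126 on the autosomes. A directly adjacent position was listed for 46.9% of the X positions and 45.5% of the autosomal positions. Runs of at least 3 adjacent positions held 23.1% and 21.9%, with the longest run at 33 positions on X and 36 on the autosomes. Of 736 X windows of 10 kb, 5 held no listed position, against 184 of 13120 autosomal windows.

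Depth differed among the 13 X sequences, which range in span between 102 kb (LG1=X_WGA8_2) and 1365 kb (LG1=X_WGA11_2). The 4 longest had 1.34 and 1.96 reads (LG1=X_WGA11_2, replicates 1 and 2), 1.33 and 1.94 reads (LG1=X_WGA12_2), 1.46 and 2.16 reads (LG1=X_WGA13_2), and 1.39 and 1.96 reads (LG1=X_WGA7_2) per position listed in the other replicate. LG1=X_WGA5_2 had 1.42 and 1.99 reads. LG1=X_WGA9_2 had 1.33 and 1.96 reads. LG1=X_WGA3_2 had 1.35 and 1.90 reads. These 7 sequences lay between 0.781 and 0.891 of the pooled autosomes in each replicate.

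The shorter sequences spread more widely. LG1=X_WGA6_2 had 1.38 and 2.02 reads, LG1=X_WGA4_2 had 1.41 and 1.79 reads and LG1=X_WGA8_2 had 1.33 and 1.90 reads. LG1=X_WGA10_2 had 1.51 and 2.04 reads. LG1=X_WGA1_2 reached 1.66 and 2.10 reads, but 133 of its positions had more than 20 reads in a replicate. Without such positions it fell to 1.45 and 1.82 reads. LG1=X_WGA4_2 was the lowest X sequence in replicate 2 and was near the middle of them in replicate 1, so the order among the sequences was not the same in both replicates.

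One X sequence had the depth of an autosome. LG1=X_WGA2_2, which spans 244 kb with 33570 listed positions, had 1.72 reads in replicate 1 and 2.41 reads in replicate 2, or 1.01 and 0.994 of the pooled autosomes. Without positions over 20 reads it had 1.68 and 2.35 reads, while the other 12 X sequences lay between 1.31 and 1.45 reads in replicate 1 and between 1.78 and 2.07 reads in replicate 2. It was singled out after its values were seen, and no test was made. The higher depth extended over the whole sequence. Its 25 windows of 10 kb had 1.38 to 2.45 reads with a median of 1.65 in replicate 1, and 2.11 to 3.46 reads with a median of 2.34 in replicate 2. Of these, 24 in replicate 1 and all 25 in replicate 2 exceeded the upper quartile of all X windows, which was 1.42 and 2.02 reads. Without LG1=X_WGA2_2 the ratio of X to the autosomes was 0.818 in each replicate, and the autosomes would have the depth of X with 0.776 and 0.780 of their reads.

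**Figure D3:**
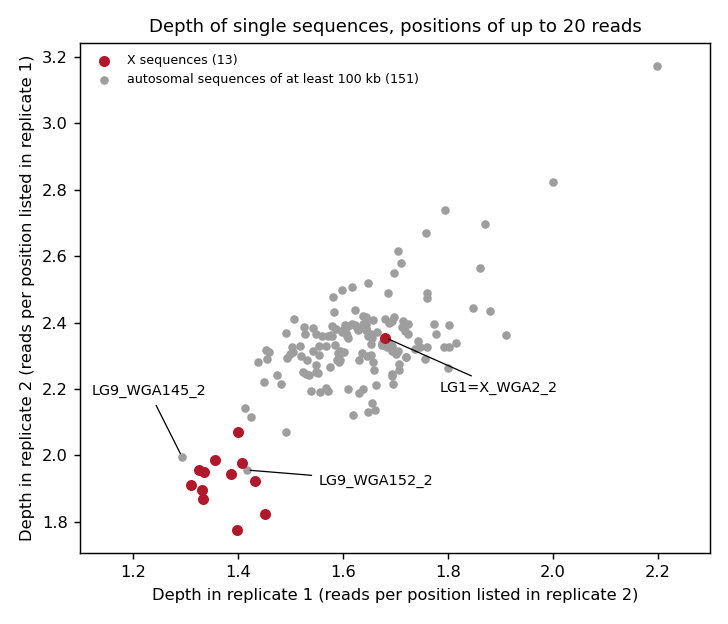
Depth in replicate 1 (x axis) and replicate 2 (y axis), in reads per position listed in the other replicate and without positions over 20 reads, for the 13 X sequences and the 151 autosomal sequences of at least 100 kb. LG1=X_WGA2_2 lies among the autosomal sequences at 1.68 and 2.35 reads, and the other 12 X sequences lie at 1.31 to 1.45 and 1.78 to 2.07 reads.

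Among the 151 autosomal sequences that span at least 100 kb, the median depth was 1.67 reads in replicate 1 and 2.38 reads in replicate 2. How far X overlapped with them depends on the very deep positions. With all positions included, 72 of the 151 (47.7%) were below the highest of the other 12 X sequences in replicate 1 and 7 in replicate 2, with 6 below it in both. In replicate 1 this highest X sequence was LG1=X_WGA1_2. Without positions over 20 reads, 6 were below the highest of the 12 in replicate 1 and 2 in replicate 2. Below LG1=X_WGA2_2 itself lay 99 and 87 of the 151, with all positions included.

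Windows of 10 kb with at least 200 listed positions, without positions over 20 reads, gave the same picture at a finer scale. The 727 X windows had a median of 1.33 reads in replicate 1 and 1.91 reads in replicate 2, against 1.61 and 2.32 reads in 12872 autosomal windows. The middle 50% of the X windows lay between 1.26 and 1.42 reads and between 1.81 and 2.02 reads. That of the autosomal windows lay between 1.50 and 1.72 reads and between 2.19 and 2.44 reads, so these ranges did not overlap in either replicate. Only 44 X windows exceeded the autosomal median in both replicates, 12 of them on LG1=X_WGA2_2 and 12 on LG1=X_WGA13_2. Across the X windows the depths of the replicates correlated with Pearson's r = 0.833 and Spearman's rho = 0.340 (n = 727 windows). The autosomal windows gave 0.770 and 0.406 (n = 12872 windows), and X without LG1=X_WGA2_2 gave 0.820 and 0.272 (n = 702 windows). These are descriptions, as the windows share 2 libraries and 1 reference sequence. Each depth also uses the positions listed in the other replicate.

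Some of the deep windows lay next to each other. A depth over 1.25 times the median X window in both replicates was found in 33 of the 727 windows (4.54%), and joining those with at most 1 window between them gave 20 stretches on 11 sequences. The share of autosomal windows over 1.25 times their own median is not given here, so the 33 windows cannot set X apart. The rule for these stretches was chosen after the depths were seen, and 6 of the windows belong to LG1=X_WGA2_2. Of the stretches, 15 were a single window and 5 held more.

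A stretch of 2 windows lay on LG1=X_WGA13_2 between positions 130001 and 150000. Its 2 windows had 2.65 and 2.78 reads in replicate 1 and 4.13 and 4.12 reads in replicate 2. The window before it had 1.16 and 1.89 reads in replicates 1 and 2, and the window after it had 1.36 and 2.23 reads. The stretch as a whole had 2.04 and 2.16 times the median X window and 1.69 and 1.78 times the median autosomal window. It also listed 1889 and 2050 positions per window, against 956 in the window before it and 1218 in the window after it. Only 2 of its positions had over 20 reads, and these are not in the values given.

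The longest stretch covered the end of the same sequence, between 1050001 and 1160000. Depth was 1.90 and 2.67 reads in its first window, against 1.33 and 2.09 reads in the last window before it. Over the stretch it was 1.86 and 2.77 reads, which is 1.40 and 1.45 times the median X window and 1.16 and 1.19 times the median autosomal window. On LG1=X_WGA5_2, the 40 kb between 20001 and 60000 had 2.64 and 3.61 reads, or 1.98 and 1.89 times the median X window. The windows next to it on either side had 1.24 and 1.72 reads before it and 1.21 and 1.67 reads after it. In its deepest window, between 40001 and 50000, 4.50 and 5.84 reads were found over only 474 listed positions.

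Single windows reached similar values. On LG1=X_WGA7_2 the window between 740001 and 750000 had 2.84 and 3.50 reads, and the next one had 1.35 and 2.04 reads. The first 10 kb of LG1=X_WGA1_2 had 3.11 and 4.05 reads, against 1.28 and 1.48 reads in the next 10 kb. This window held 124 of the 133 positions of that sequence with over 20 reads, which are not in these values.

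**Figure D4:**
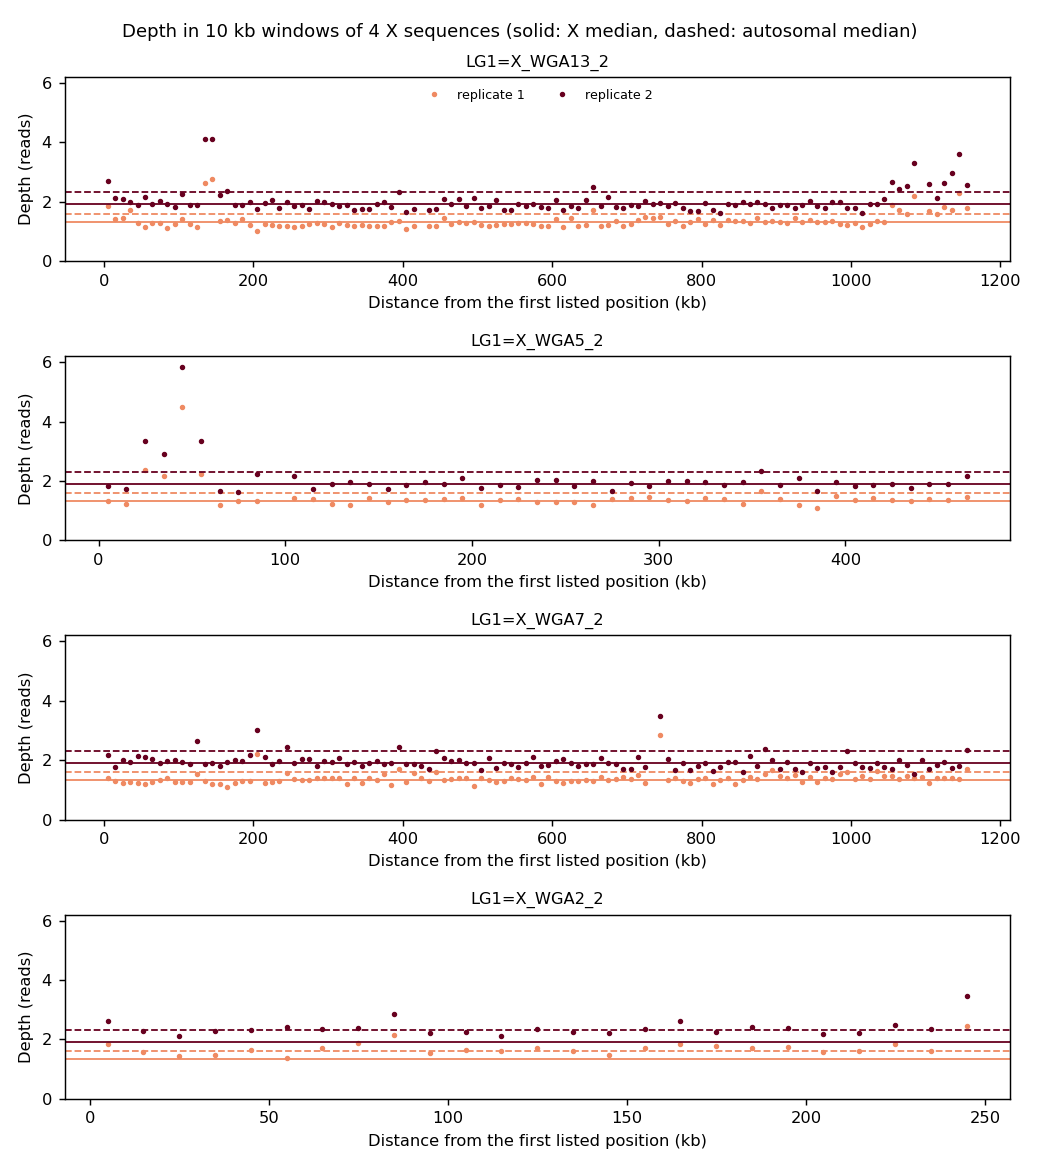
Depth (y axis, reads per position listed in the other replicate, without positions over 20 reads) in 10 kb windows along LG1=X_WGA13_2, LG1=X_WGA5_2, LG1=X_WGA7_2 and LG1=X_WGA2_2, against the distance from the first listed position (x axis, kb). Solid lines mark the median X window (1.33 and 1.91 reads) and dashed lines the median autosomal window (1.61 and 2.32 reads). The deep stretches rise abruptly over the solid lines and mostly over the dashed lines, and LG1=X_WGA2_2 follows the dashed lines. In the longest stretch, on LG1=X_WGA13_2, the window between 1110001 and 1120000 had 1.59 and 2.12 reads, under the dashed lines.

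In windows of 100 kb with all positions included, the deepest lay at the end of LG1=X_WGA13_2, with 2.18 and 3.16 reads between 1000001 and 1100000 and 1.90 and 2.83 reads in the next, shorter one. The first 100 kb of LG1=X_WGA1_2 followed with 2.08 and 2.61 reads, and then the window of LG1=X_WGA13_2 between 100001 and 200000 with 1.79 and 2.77 reads. The fifth, at the end of LG1=X_WGA8_2, holds only 219 listed positions over 1.77 kb. It had 1.63 and 2.79 reads. Without positions over 20 reads the first of these fell to 1.51 and 2.24 reads, so its rank rests on 45 positions. The 5 shallowest windows differed little from each other. On LG1=X_WGA12_2 they had 1.23 and 1.82 reads between 900001 and 1000000, 1.23 and 1.85 reads between 500001 and 600000, and 1.27 and 1.84 reads between 400001 and 500000. The others were on LG1=X_WGA13_2 between 500001 and 600000, with 1.24 and 1.83 reads, and in the first 100 kb of LG1=X_WGA4_2, with 1.39 and 1.72 reads. They had 0.710 to 0.816 of the depth of the pooled autosomes. The deepest of the 80 windows had 1.28 and 1.30 times this depth with all positions. With positions over 20 reads left out of both the window and the autosomes, it had 0.920 and 0.953 of the autosomal depth. The first 100 kb of LG1=X_WGA1_2 had 1.22 and 1.08 times the depth of the pooled autosomes with all positions. It had 0.936 and 0.814 with positions over 20 reads, 128 in this window, left out of both.

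Very deep positions made up a smaller share of X than of the pooled autosomes, but not than of each autosome. More than 20 reads in a replicate covered 525 X positions (0.0549%), against 20545 autosomal positions (0.125%), and linkage group 5 was below X with 0.0507%. They took 1.56% of the X reads and 2.72% of the autosomal reads, with 0.900% on linkage group 5 and 1.31% on linkage group 2. More than 100 reads covered 32 X positions (0.00335%), against 0.00706% on the pooled autosomes, 0.00178% on linkage group 2 and 0.00173% on linkage group 5. Of the 32, 13 lay in 1 group on LG1=X_WGA13_2. There, 34 positions within 319 bp, between 1049434 and 1049752, had more than 20 reads. The 94 other positions listed in the same 1 kb had a median of 1 read in each replicate. The group ends 249 bp before the first window of the deep end of this sequence.

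The 5 X positions with the most reads all belong to this group. Position 1049456 of LG1=X_WGA13_2 had 871 reads in replicate 1 and 1104 in replicate 2, position 1049516 had 668 and 805 reads, position 1049444 had 625 and 735 reads, position 1049442 had 543 and 636 reads, and position 1049489 had 456 and 537 reads. All of these reads were converted except 1 read at 1049444 in replicate 1. At 1049456, 0 unconverted among 1975 reads allows a share of up to 0.152%, for counting error only. Over the whole group, 4 of 12714 reads were unconverted, or 0.0315% (95% Wilson interval 0.0122% to 0.0809%).

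Non-conversion on X was close to that on the autosomes. In replicate 1, 521 of the 1327339 X reads were unconverted, or 0.0393% (95% Wilson interval 0.0360% to 0.0428%), against 0.0380% (0.0373% to 0.0388%) on the autosomes. In replicate 2, 996 of the 1791905 X reads were unconverted, or 0.0556% (0.0522% to 0.0591%), against 0.0558% (0.0550% to 0.0566%). The ratio was 1.03 in replicate 1 (95% interval 0.945 to 1.13, two-sided Fisher's exact test, p = 0.480, adjusted p = 0.923) and 0.996 in replicate 2 (0.935 to 1.06, p = 0.923, adjusted p = 0.923). These tests compare reads within a library, which share molecules, and not conditions, and the intervals cover counting error only. Of the 9 autosomes, 2 were above X in replicate 1 and 4 in replicate 2. They ranged between 0.0365% (linkage group 2) and 0.0404% (linkage group 10), and between 0.0526% (linkage group 10) and 0.0580% (linkage group 8).

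**Figure D5:**
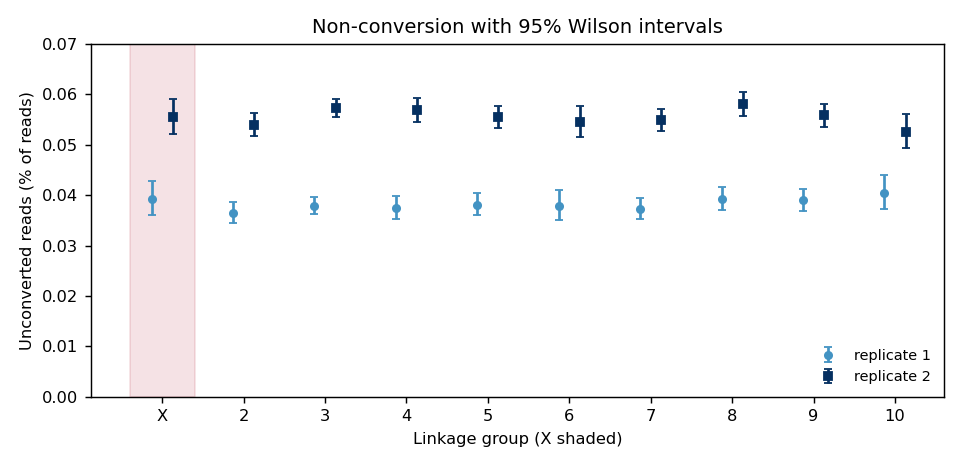
Unconverted reads as a percentage of all reads (y axis, points with 95% Wilson intervals) for X and linkage groups 2 to 10 (x axis) in both replicates. X, at 0.0393% and 0.0556%, lies within the range of the autosomes in each replicate.

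When the unit was a 1 kb block instead of a read, X was lower. At least 1 unconverted read was found in 499 of 7118 X blocks (7.01%) in replicate 1, against 7.54% of the autosomal blocks, and in 826 of 7119 X blocks (11.6%) in replicate 2, against 12.9%. The ratio was 0.930 (p = 0.101, two-sided Fisher's exact test) and 0.903 (p = 0.00205, without adjustment). An X block held 186 and 252 reads on average, against 212 and 285 reads in an autosomal block, and the part of this in the difference was not tested.

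Among the 13 X sequences, no difference in non-conversion beyond counting error was detected in either replicate (chi-square test of read counts, chi-square = 5.82 with 12 df, p = 0.925 in replicate 1, and 6.86, p = 0.867 in replicate 2). It ranged between 0.0205% (LG1=X_WGA8_2, 4 unconverted reads) and 0.0471% (LG1=X_WGA6_2) in replicate 1, and between 0.0417% (LG1=X_WGA8_2) and 0.0701% (LG1=X_WGA4_2) in replicate 2. LG1=X_WGA2_2, with its autosomal depth, had 0.0414% (0.0276% to 0.0622%) and 0.0547% (0.0402% to 0.0745%). At the 525 positions with over 20 reads, 9 of 21808 reads (0.0413%) and 11 of 26995 reads (0.0407%) were unconverted. In the deep stretch of LG1=X_WGA13_2 between 130001 and 150000, 0 of 9937 reads were unconverted in replicate 1 and 6 of 13760 reads (0.0436%) in replicate 2. The 0 would allow up to 0.0302% if each count were a separate read.

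An unconverted read was found at 519 X positions in replicate 1 (0.0774% of the listed ones) and at 995 in replicate 2 (0.128%), against 0.0849% and 0.148% of the autosomal positions. Such a share also depends on the reads per position, which were fewer on X, and per read the X to autosome ratio was 1.03 and 0.996. Exactly 1 read was unconverted at 517 of the 519 X positions and at 994 of the 995. They had a median of 2 and 3 reads, where all listed X positions had a median of 1 and 2, and unconverted autosomal positions had a median of 3 and 4 reads. The listed read was the only read at 142 of them in replicate 1 and at 168 in replicate 2.

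In both replicates 3 X positions had an unconverted read, out of 491498 listed in both. This is 0.000610% (95% Wilson interval 0.000208% to 0.00179%), against 80 of 8981306 autosomal positions or 0.000891% (0.000716% to 0.00111%), and the intervals overlap. At position 878020 of LG1=X_WGA13_2, 2 of 5 reads were unconverted in replicate 1 and 2 of 6 in replicate 2, or 36.4% together (15.2% to 64.6%). At position 204776 of LG1=X_WGA9_2 it was 1 of 3 and 1 of 2 reads. At position 1049558 of LG1=X_WGA13_2, within the very deep group, it was 1 of 268 and 1 of 307 reads, or 0.348% together (0.0954% to 1.26%). Whether these positions lie in genes was not analysed here.

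No X position passed the test against the background, but few positions passed it anywhere. The unconverted reads of every position in the table that had 5 reads or more were set against the overall non-conversion of the replicate with an exact binomial test, one-sided, and p-values were adjusted after Benjamini and Hochberg over all tested positions. Of 32534 X positions tested in replicate 1 and 73632 in replicate 2, 0 passed an adjusted p of 0.05, where 0.00112% and 0.000338% of all tested positions passed. In both replicates 10835 X positions were tested and 0 passed, against 0.000809% of all. At shares this low a count of 0 is near the background and is no result about X. An unadjusted p under 0.05 was found at 77 X positions (0.237%) in replicate 1 and at 254 (0.345%) in replicate 2, against 0.335% and 0.450% of all tested positions. At a position with few reads, 1 unconverted read is enough for such a p. These shares therefore also depend on the reads per position, which were fewer on X, and the part of this was not tested. In both replicates an unadjusted p under 0.05 was found at 1 X position. That 1 is position 878020 of LG1=X_WGA13_2, with an unadjusted p of 1.47e-06 in replicate 1 and 4.85e-06 in replicate 2 and an adjusted p of 0.105 and 0.516 (exact binomial test). Position 163253 of LG1=X_WGA2_2 had 2 of 5 unconverted reads and the same adjusted p in replicate 1, but 0 of 8 in replicate 2. The number of X positions tested in both replicates is 2.20% of those listed in both, so for most of X a level above background was not detectable at this depth.

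Unconverted X positions lay close together in replicate 2 but hardly in replicate 1. Chains of at least 4 unconverted positions with gaps of at most 50 bp were found 13 times on X in replicate 2, with 61 of the 995 unconverted positions (6.13%), and 0 times in replicate 1. On the autosomes such chains held 7.72% of the unconverted positions in replicate 2 and 0.546% in replicate 1, so they were also more frequent in replicate 2 there. Every position in the 13 X chains had exactly 1 unconverted read, and no chain was longer than 50 bp. The chains held 61 unconverted among 301 reads in replicate 2 by their definition. The same stretches had 183 reads in replicate 1, of which 0 were unconverted. This would allow up to 1.64% if each were a separate read. Within a chain 1 read can be counted at several positions, so the true limit is higher. The largest chain was on LG1=X_WGA5_2 between 434359 and 434408, where 6 of 9 listed positions had an unconverted read in replicate 2, and 0 of 14 reads were unconverted in replicate 1.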

How the data were processed

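The deposited tables hold whole-number counts, for unconverted and for converted reads at a position, without normalization, strand or context. Coordinates are those of assembly version 3.0, and the authors obtained the counts from BSMAP alignments freed of duplicates (Picard). The submitters' processing notes also name Trimmomatic 0.32. The sum of both counts was taken as the reads at a position. X positions were those on sequences whose name gives linkage group 1, and spans ran between the first and last listed position. X was compared with linkage groups 2 to 10 in each replicate, and unplaced sequences were used only in the binomial test. Named were all X sequences of at least 100 kb, X positions that passed this test, up to 5 positions unconverted in both replicates, the 5 with the most reads, and the 5 deepest and shallowest 100 kb windows. Other stretches were named after their values were seen. Members and lists were chosen with earlier results of these data known. The binomial test and the calculation with part of the reads were tested on simulated data. For the calculation these were drawn from the autosomal reads themselves, so they could not test whether X fragments are recovered alike. Alternatives were set for depth limits, sequences, windows, tests and replicates. Calculations used scipy 1.17.1, numpy 2.4.6 and pandas 2.3.3 in Python 3.11.15, and matplotlib 3.10.9 drew the figures. Mapping and duplicate removal decide which reads are counted and could not be varied.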

Additional observations from a re-analysis of the deposited data

How the results depend on the processing

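The X to autosome ratio of depth at positions listed in the other replicate stayed under 1 in all alternatives, at 0.835 without positions over 20 reads, 0.828 on sequences of at least 100 kb, 0.819 both without the first and last 10 kb of each sequence and against the median of the 9 autosomes, and 0.818 without LG1=X_WGA2_2. Replicates 1 and 2 each gave 0.825, but both values use the positions listed in both replicates, so neither replicate was left out. The SD of this ratio is so small that every other alternative exceeded it. The ratio of reads per listed position moved to 0.883 without positions over 20 reads, 0.859 at positions listed in both replicates, 0.966 with at least 5 reads, and 0.986 from the positions with 1 and 2 reads, where it was 0.955 and 1.02 in replicates 1 and 2, and the replicates alone gave 0.869 and 0.878. A minimum of 5 reads kept 4.85% and 9.49% of the X positions in replicates 1 and 2, and 8.45% and 15.1% of the autosomal positions. In replicate 2 the estimate from 1 and 2 reads hardly responds to depth, as given above, so it cannot show whether X was lower there. For replicate 1 the cause of its value was not tested. The ratio of reads per kb moved to 0.913 without positions over 20 reads, 0.903 without sequence ends, 0.931 against the median autosome, 0.904 without LG1=X_WGA2_2, 0.892 pooled over the span and 0.934 in 100 kb windows, and was 0.911 in either replicate. That of listed positions per kb moved to 1.06 against the median autosome, 1.02 pooled and 1.07 in 100 kb windows, and was 1.03 and 1.06 in single replicates. The share of autosomal reads that gives the X depth, an analysis added after seeing the data like the omission of LG1=X_WGA2_2, moved to 0.782 from reads per listed position, 0.800 without positions over 20 reads, 0.790 on long sequences, 0.780 without sequence ends and 0.778 without LG1=X_WGA2_2. The values for replicates 1 and 2, 0.784 and 0.788, were solved together from both replicates.

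The ratio of non-conversion crossed 1 in replicate 1, to 0.969 with at least 5 reads, and in replicate 2, to 1.001 without positions over 20 reads. In 1 kb blocks the ratio is that of blocks with at least 1 unconverted read and not of reads. It was 0.930 in replicate 1 and 0.903 in replicate 2, the latter with p = 0.00205 (Fisher's exact test). An X block held fewer reads, 186 and 252 against 212 and 285 in an autosomal block, and the part of this was not tested. Over all alternatives p was 0.101 to 0.900 in replicate 1 and 0.00205 to 0.961 in replicate 2 (Fisher's exact or chi-square test). The lowest p in each replicate came from the blocks. With at least 2 unconverted reads in each replicate, 1 X position was shared in place of 3. No alternative gave an X position above background in both replicates. No paired analysis was possible because there is 1 group.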

Other observations

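Of the 151 autosomal sequences of 100 kb or more, 6 were below the highest of the 12 X sequences other than LG1=X_WGA2_2 in both replicates, with all positions included. The 2 with the lowest mean depth are both on linkage group 9. LG9_WGA145_2, which spans 121 kb, had 1.36 reads in replicate 1 and 2.09 reads in replicate 2 per position listed in the other replicate, or 0.798 and 0.863 of the pooled autosomes. LG9_WGA152_2, which spans 129 kb, had 1.42 and 1.96 reads, or 0.834 and 0.806 of the pooled autosomes. Both were named after their values were seen.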
